A study of Homo sapiens with 41 samples.

Results

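In a breast cancer cell line, pan-acetyl histone H3 peaks were listed with an HDAC6 inhibitor and not without it at 909 regions away from the outer ends of protein-coding genes, and these regions are described here. The peaks of 4 pan-acetyl lists, 2 without and 2 with the inhibitor, were merged into 118158 regions on chromosomes 1 to 22 and X. A region was kept when both inhibitor lists and neither control list had a peak there, which held for 4364 regions or 3.69% of them. Of these, 3658 were under 3000 bp wide, and 909 of those lay more than 1 kb from both ends of each of 19974 protein-coding genes. The regions were thus chosen by the pan-acetyl peaks themselves, and pan-acetyl values are given below as description, with no test.

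The cells were MDA-MB231, an established triple-negative breast cancer line of epithelial origin. Untreated cells (Ctrl) were compared with cells given 5 µM Nexturastat A (NextA), an HDAC6 inhibitor, for 2 days, and cells carrying a control hairpin (shCtrl) with cells carrying a hairpin against HDAC6 (shHDAC6). Peak lists were used of pan-acetyl ChIP-seq (Ctrl and NextA, 2 each), RNA polymerase II ChIP-seq with an antibody to the tail of its largest subunit (PolII; all 4 groups, 2 each), ATAC-seq, which reads open chromatin (all 4 groups, 3 each), HDAC6 ChIP-seq (Ctrl, NextA and shHDAC6, 2 each) and HDAC6 CUT&Tag (Ctrl, 2). The labels name neither a clone, nor a hairpin, nor a vehicle, and do not say that replicates were separate cultures. The p-values below therefore cover only how far these libraries differ, and that can be technical. HDAC6 ChIP list 1 of Ctrl and NextA used a CST antibody and list 2 a Novus antibody, and both shHDAC6 lists used Novus.

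Acetylation of lysines on the histone H3 tail is placed by acetyltransferases, removed by deacetylases and read by bromodomain proteins. It marks active promoters and enhancers, where chromatin is open and polymerase is engaged. The antibody used here recognises several acetylated lysines of H3 and does not tell them apart. HDAC6 is a deacetylase best known for its cytoplasmic substrates, among them tubulin. Many genes have further start sites inside the gene body, and long non-coding RNA, microRNA and tRNA genes have starts of their own, so a region far from the outer end of a protein-coding gene need not be an enhancer.

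Of the 909 regions, 382 lay within 1 kb of a start or gene that the annotation lists, although all of them passed the distance rule. A start of a protein-coding transcript inside its gene was near 237 (26.1%). A non-coding start, meaning any other start not listed as protein-coding, was near 110 (12.1%). A small RNA gene without either was near 35 (3.85%). The other 527 (58.0%) had no listed start within 1 kb, and they may cover starts that the annotation used here does not list. The name distal thus holds only with respect to the outer gene ends, and the annotation classes, which were chosen after the data had been seen, are kept apart below.

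The DNA just upstream of the listed starts shows what kind of site many of these regions cover. The 250 bases before the start are printed 5′ to 3′ on the strand of the transcript, from RefSeq (GRCh38.p14), for starts that lie in regions of high pan-acetyl rank. Capitals mark matches, on either strand, to a motif that was searched, here the core of a GC box (GGGCGG), the CCAAT box, which is spelled as its name, and the ETS motif (CCGGAAGT). Overlapping matches are merged, and no match was found in these windows to the other motifs searched. The windows are chr19:16076245-16076494 (plus strand) for TPM4, a tropomyosin of the actin cytoskeleton, chr9:120877189-120877438 (minus) for PHF19, a Polycomb-like partner of the histone methyltransferase complex PRC2, chr10:102132790-102133039 (plus) for PPRC1, a coactivator related to PGC-1, chr12:57725990-57726239 (plus) for the long non-coding RNA AGAP2-AS1, and chr7:76549091-76549340 (plus) for the long non-coding RNA LINC03009.
TPM4: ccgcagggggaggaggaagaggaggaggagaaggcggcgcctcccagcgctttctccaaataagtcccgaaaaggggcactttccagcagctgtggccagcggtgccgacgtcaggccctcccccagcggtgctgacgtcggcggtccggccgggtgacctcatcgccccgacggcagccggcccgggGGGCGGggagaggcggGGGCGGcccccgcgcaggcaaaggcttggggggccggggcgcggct
PHF19: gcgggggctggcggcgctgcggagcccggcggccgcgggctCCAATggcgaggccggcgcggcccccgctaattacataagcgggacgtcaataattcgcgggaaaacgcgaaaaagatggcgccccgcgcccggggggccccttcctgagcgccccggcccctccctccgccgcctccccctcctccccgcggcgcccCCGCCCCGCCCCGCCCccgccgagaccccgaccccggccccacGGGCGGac
PPRC1: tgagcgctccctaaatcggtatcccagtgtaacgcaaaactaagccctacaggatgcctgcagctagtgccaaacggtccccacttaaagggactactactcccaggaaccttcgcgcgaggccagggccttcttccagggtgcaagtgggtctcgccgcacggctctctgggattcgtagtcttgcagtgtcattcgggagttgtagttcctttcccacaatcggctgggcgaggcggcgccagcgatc
AGAP2-AS1: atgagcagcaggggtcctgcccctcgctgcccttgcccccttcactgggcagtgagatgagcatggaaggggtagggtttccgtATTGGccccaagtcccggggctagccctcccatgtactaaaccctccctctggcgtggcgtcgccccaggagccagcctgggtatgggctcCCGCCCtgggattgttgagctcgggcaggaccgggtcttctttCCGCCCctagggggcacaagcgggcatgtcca
LINC03009: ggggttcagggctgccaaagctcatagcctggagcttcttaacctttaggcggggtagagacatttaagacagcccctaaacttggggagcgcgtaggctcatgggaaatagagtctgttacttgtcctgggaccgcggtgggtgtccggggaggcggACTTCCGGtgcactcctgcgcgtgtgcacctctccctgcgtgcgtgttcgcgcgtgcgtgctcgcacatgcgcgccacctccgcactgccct

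The printed windows are rich in G and C: 74.4% for TPM4, 79.2% for PHF19, 58.4% for PPRC1, 65.6% for AGAP2-AS1 and 62.0% for LINC03009. CpG dinucleotides number 27, 39, 17, 11 and 20 in the same order. GGGCGG or its reverse complement occurs 2 times for TPM4, 2 times for AGAP2-AS1 and, with overlapping matches, near the start of PHF19. PPRC1 and LINC03009 have none in this window. The windows of MCCC1 and of the long non-coding RNA ZSCAN16-AS1 were extracted in the same way and are not printed. They have 72.8% and 52.8% GC, with 23 and 14 CpG, and neither holds a match to a motif searched. The printed windows thus leave out the one lowest in GC.

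High GC content was also common across the 387 listed starts that lie inside a region. Their upstream windows had a median GC content of 66.4% and a median of 21 CpG, and 69.0% held GGGCGG on either strand. Of 15071 other listed starts more than 1 kb from a gene end, the median window had 48.8% GC and 3 CpG, and 21.5% held GGGCGG. Windows of 19331 starts within 1 kb of a gene end had 63.6% GC and 19 CpG, with GGGCGG in 58.6%. The windows of all 34789 starts held GGGCGG in 42.6%. TATAAA showed the reverse order. It was found at 2.58% of the starts inside the regions and 14.5% of the other starts more than 1 kb from a gene end. At starts within 1 kb of a gene end it was 8.03%, and at all starts 10.8%. CCAAT was found at 24.8%, 31.1%, 32.8% and 32.0% in the same order. The AP-1 motif TGANTCA was found at 5.94%, 9.18%, 4.52% and 6.55%, the E-box CACGTG at 6.46%, 4.48%, 7.76% and 6.33%, and the NRF1 motif at 2.58%, 0.358%, 1.51% and 1.02%. For the ETS motif the values were 3.88%, 0.936%, 5.31% and 3.40%. Inside the regions it was at 1.59% of protein-coding and 8.15% of non-coding starts. Of the 387 starts, 252 were protein-coding and 135 non-coding. Their upstream windows were thus close to gene-end promoters in GC and CpG content. In this they were unlike most other starts more than 1 kb from a gene end. TATAAA and CCAAT were rarer in them than at gene ends. This is a description of the letters in the windows.

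MicroRNA genes lay within 1 kb of 11 regions. One region, chr17:2049617-2050880, covers MIR132 and MIR212, neighbouring hairpins whose 3p arms share a seed, and another, chr11:567659-569621, covers MIR210, a microRNA known for its induction in low oxygen. Their mature sequences are from RefSeq, with the seed (bases 2 to 8) in capitals.
hsa-miR-132-3p: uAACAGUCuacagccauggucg
hsa-miR-212-3p: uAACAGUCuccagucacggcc
hsa-miR-210-3p: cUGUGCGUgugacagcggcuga

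The shared seed of miR-132-3p and miR-212-3p is AACAGUC, and that of miR-210-3p is UGUGCGU. The MIR132 and MIR212 region had a PolII peak in 4 of 4 parental lists (Ctrl and NextA) and an ATAC peak in 2 of 6. The MIR210 region had both in all parental lists, 4 of 4 for PolII and 6 of 6 for ATAC. The mature RNAs were not measured.

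Peak lists differed in how they were made, and the choice of the regions rests on that. Control pan-acetyl list 1 held 1418 peaks and control list 2 held 41411, against 28473 and 61186 in NextA lists 1 and 2. Lists 1 hold every number that the peak caller gave, whereas control list 2 kept 11.2% and NextA list 2 kept 18.6% of its peak numbers. Across the other assays the lists ranged from 25878 to 79666 peaks for ATAC, 19519 to 31198 for PolII and 235 to 63833 for HDAC6 ChIP. The peak names in NextA HDAC6 list 2, which holds 235 peaks, carry a prefix used elsewhere by shCtrl lists, and those in CUT&Tag list 2 carry a hairpin prefix. The lists carry no read depth, so the absence of a peak means only that none was called. With the strongest peaks of each pan-acetyl list at equal length, 9 regions met the rule, and with a −log10 q of at least 2 required, 14 did.

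PolII peaks at either gene end checked the line. They were present in 4 of 4 parental lists at VIM, CD44, AXL, CAV1 and EGFR, mesenchymal and basal genes, and in 0 of 4 at the oestrogen receptor gene ESR1. ERBB2, whose product a triple-negative tumour does not overexpress, had a peak in 4 lists, the luminal gene GATA3 in 3, CDH1 in 2 and the progesterone receptor gene PGR in 1, so these markers did not all follow the label. Of 20 leukocyte markers 2 had a peak in all 4 lists and 13 in none, and of 20 neuron markers 3 had a peak in all 4 and 7 in none.

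The gained regions were wider than most pan-acetyl regions but narrower than the sets most like them. They were of middling strength, with median fold percentiles of 59.2 and 48.5 within NextA lists 1 and 2. Their median width was 1430 bp (303 to 2991, with the upper limit set by the rule), against 394 bp for all merged regions. It was 1920.5 bp for distal narrow regions that had a pan-acetyl peak in a control list as well. Narrow regions gained at gene ends had 1796 bp. A region merged from peaks of 2 lists is at least as wide as each of them, which bears on the comparison with all regions. The median distance to the nearest protein-coding gene end was 15367 bp. The authors' fold of the strongest pan-acetyl peak had a median of 3.51 in NextA list 1 (2.37 to 7.68) and 2.28 in NextA list 2 (1.71 to 4.599). A −log10 q of at least 2 was reached by 616 regions in NextA list 1 and by 8 in NextA list 2. A control list 2 peak lay within 1 kb of 28 regions and a control list 1 peak within 1 kb of 1. The within-list percentiles of the fold in the NextA lists were almost unrelated across the 909 regions (Pearson r = -0.09, regions sharing both libraries). The regions nearest the thresholds were those of 2991 bp in CDKN1A and 2989 bp in PALLD inside, and of 3005 bp near POM121 and DLGAP1 outside. For distance they were 1003 bp from TRIM7 and 1070 bp from GJD3 inside, and 996 bp from DEDD2 and 970 bp from KLHL12 outside.

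**Figure D1:**
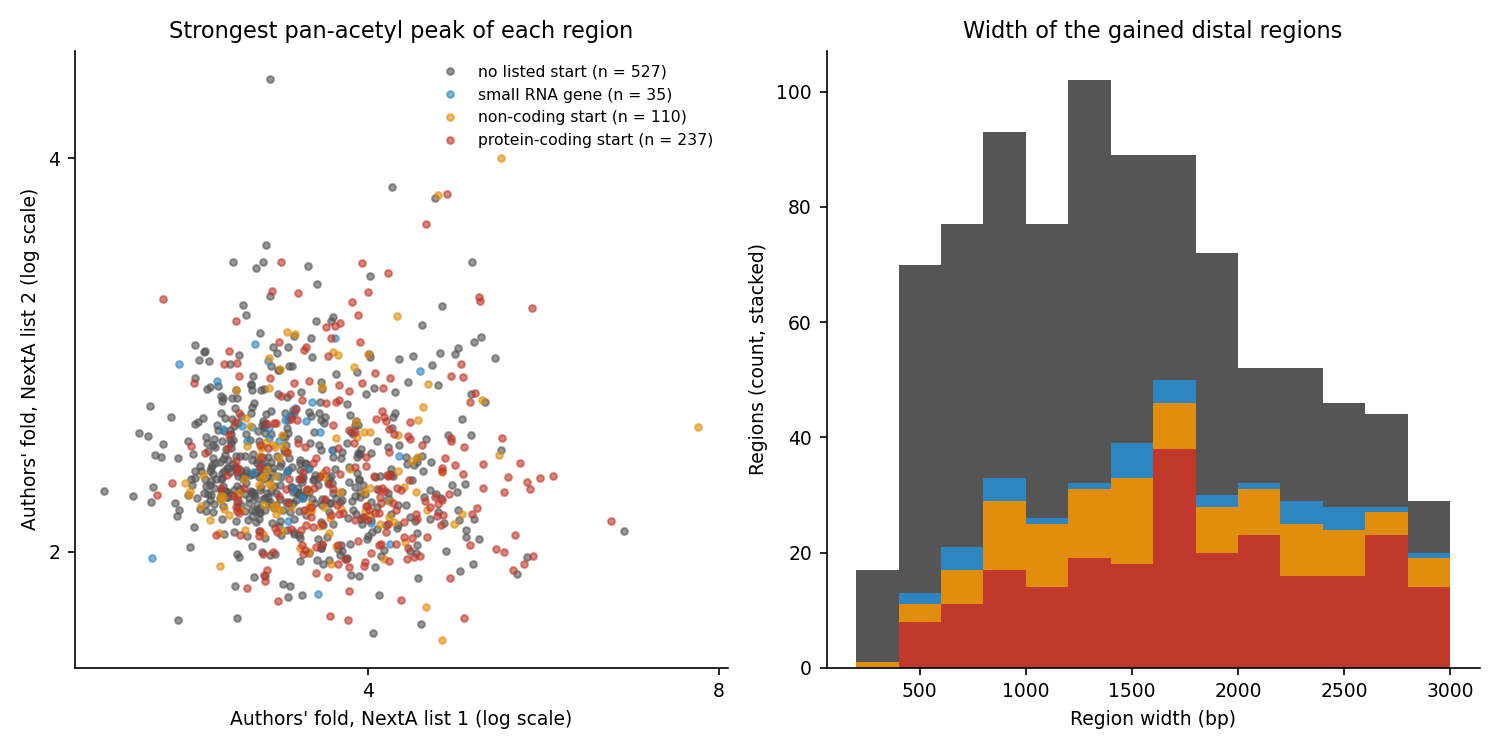
Left, the authors' fold of the strongest pan-acetyl peak of each of the 909 regions in NextA list 1 (x axis) and NextA list 2 (y axis), both on log scales, coloured by annotation class. Right, stacked counts of regions by width in bp, in the same colours. The folds form a single cloud without a trend, and the regions without a listed start make up most of the narrow ones.

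Open chromatin and polymerase were already present at most of the regions in untreated cells. ATAC peaks overlapped 77.9%, 74.3% and 75.7% of the 909 regions in Ctrl lists 1 to 3, and 67.1%, 68.5% and 63.9% in the shCtrl lists. PolII peaks overlapped 70.8% and 78.1% in Ctrl and 71.2% and 70.4% in shCtrl. An ATAC peak in all 6 parental lists and a PolII peak in all 4 were found together at 406 regions (44.7%). Singly they were found at 527 and 570 of the 909, and at 12124 and 11927 of all 118158 merged regions. The joint count over all merged regions is not given, here or for the classes below. The nearest ATAC summit of Ctrl list 1 lay within 500 bp of the centre of 58.5% of the regions and within 1000 bp of 79.3%. Such distances are not given for other pan-acetyl regions. Within Ctrl lists 1 to 3 the overlapping ATAC peaks had median fold percentiles of 59.3, 71.4 and 68.4, and the PolII peaks in Ctrl lists 1 and 2 of 64.4 and 64.3, so they stood above the median peak of each list.

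**Figure D2:**
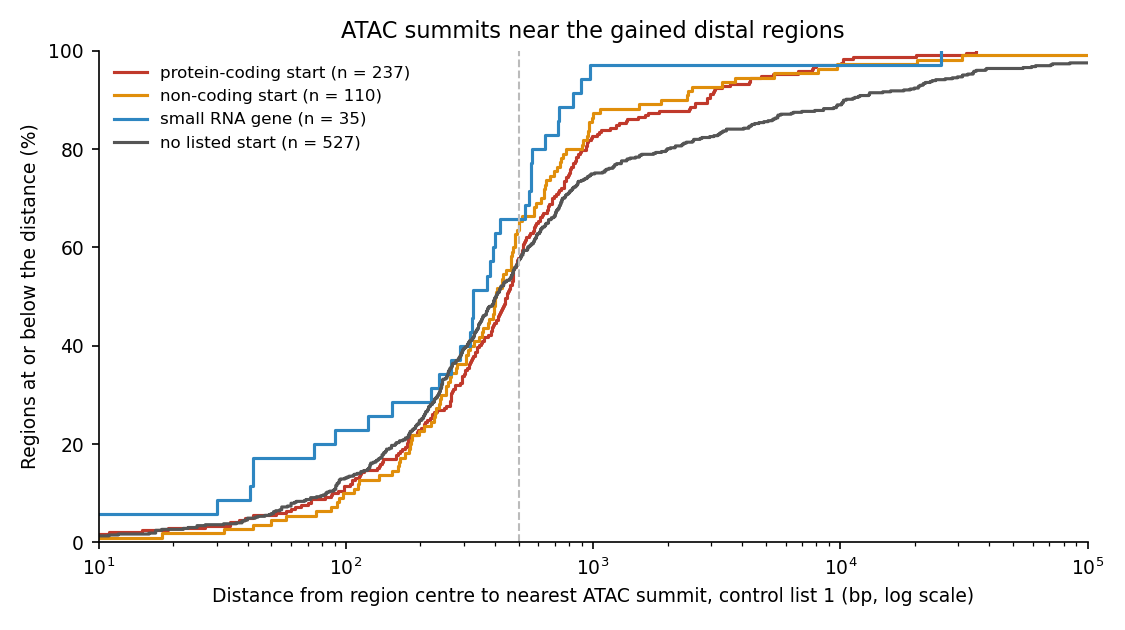
Cumulative share of regions (%) by distance in bp, on a log scale, from the region's centre to the nearest ATAC summit in Ctrl list 1, for the 4 annotation classes. The dashed line marks 500 bp, within which 57.3% of the regions without a listed start and 57.8% of those near a protein-coding start have a summit. Beyond 1000 bp the curve of the regions without a listed start stays below the others.

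These shares lay between those of other pan-acetyl regions. Over the 6 untreated ATAC lists the gained distal regions averaged 71.2%, against 81.2% of 356 distal narrow regions that had a pan-acetyl peak in a control list as well, called kept here. The difference was -10.0 percentage points (-12.5 to -7.18 in single lists). Against 65492 distal narrow regions with a peak in 1 NextA list only, which had an ATAC peak in 7.09%, it was 64.1 points (59.1 to 67.9). Against 2749 gained narrow regions at gene ends, with 89.7%, it was -18.4 points (-23.1 to -13.1). Each ATAC difference had the same sign in 6 of 6 lists. An exact sign-flip permutation test gave p = 0.03125, the smallest it can give. After Benjamini-Hochberg adjustment over 9 comparisons this was 0.09375, above 0.05 and the lowest value that these comparisons could give. All lists came from the same cell line and were read at the same regions, so their signs are not independent. This test and the sign-flip tests below thus cover only how far the lists agree. The regions in 1 list only differ from the gained ones by the rule itself, which asks for a peak in both NextA lists. They were also narrower, with a median width of 360 bp. In a fixed window of 500 bp at the centre the difference from them was 55.6 points.

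PolII and HDAC6 followed the same order. Over 4 untreated PolII lists the gained distal regions averaged 72.6%, the kept regions 93.0%, those in 1 NextA list 4.58% and those gained at gene ends 97.5%. Over 4 control HDAC6 lists (ChIP and CUT&Tag) the averages were 42.5%, 59.0%, 3.13% and 61.5%. All 4 lists had the same sign in each of these comparisons, and the exact two-sided sign-flip p was 0.125, the smallest that 4 lists can give, so neither can pass 0.05.

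**Figure D3:**
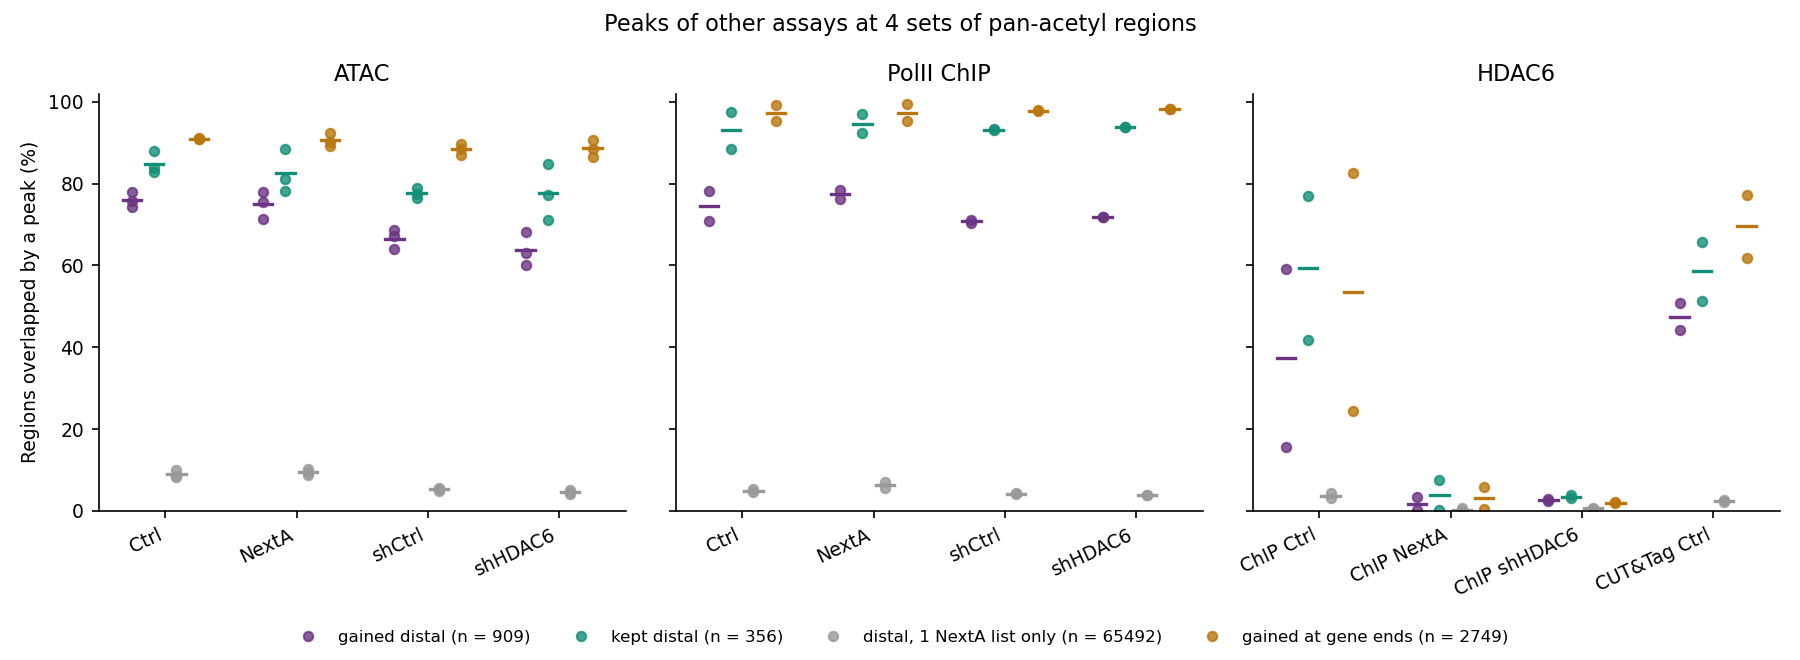
Share of regions (%) overlapped by a peak in each list (points; bars are group means) for ATAC, PolII and HDAC6, in 909 gained distal regions and 3 other sets of pan-acetyl regions. The gained distal regions lie below the kept regions and those gained at gene ends, and far above the regions with a peak in 1 NextA list only, except in the HDAC6 ChIP lists of NextA and shHDAC6, where all sets are low.

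Regions near protein-coding starts inside genes had the highest PolII share of the annotation classes in each list, on average 92.6% in Ctrl and 93.5% in shCtrl, and the 35 regions at small RNA genes the highest mean ATAC share, 89.5% in Ctrl and 90.5% in shCtrl. The median width of those near protein-coding starts was 1771 bp, against 1250 bp for the regions without a listed start, which bears on overlap. PolII peaks were present at 88.6% and 96.6% of them in Ctrl and at 93.7% and 93.2% in shCtrl. ATAC peaks covered 84.8%, 84.8% and 84.0% in Ctrl and 81.0%, 82.7% and 78.5% in shCtrl. Compared with the regions without a listed start the untreated PolII share was higher by 31.4 points and the ATAC share by 19.4 points, with the same sign in 4 of 4 and 6 of 6 lists (exact sign-flip permutation p = 0.125 and 0.03125, adjusted over 9 comparisons 0.141 and 0.0938). With 4 and 6 lists these could not have passed the adjusted threshold of 0.05.

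The named examples differed in how strong the open chromatin was. The TPM4 region (chr19:16076095-16078957, 8557 bp from a gene end) had pan-acetyl folds of 4.98 and 3.13. Its PolII peaks ranked at percentiles 56.9 and 75.0 of their lists in Ctrl, 73.6 and 77.9 in NextA, 64.5 and 67.8 in shCtrl and 47.7 and 52.8 in shHDAC6. Its ATAC peaks ranked at 45.7, 2.72 and 47.8 in Ctrl, 65.0, 29.5 and 18.5 in NextA and 4.38 in shCtrl list 1, and no ATAC peak was called in the other 5 hairpin lists. The PHF19 region (chr9:120875227-120878030) had PolII at percentiles 86.1 and 79.7 in Ctrl and 82.5 and 92.9 in NextA, with ATAC at 34.2, 59.5 and 43.6 in Ctrl. The region in MCCC1 (chr3:183098560-183099429), which encodes a subunit of an enzyme of leucine breakdown, had the strongest ATAC peaks of these 3, at 95.7, 99.6 and 89.4 in Ctrl and 95.8, 99.3 and 98.9 in NextA.

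**Figure D4:**
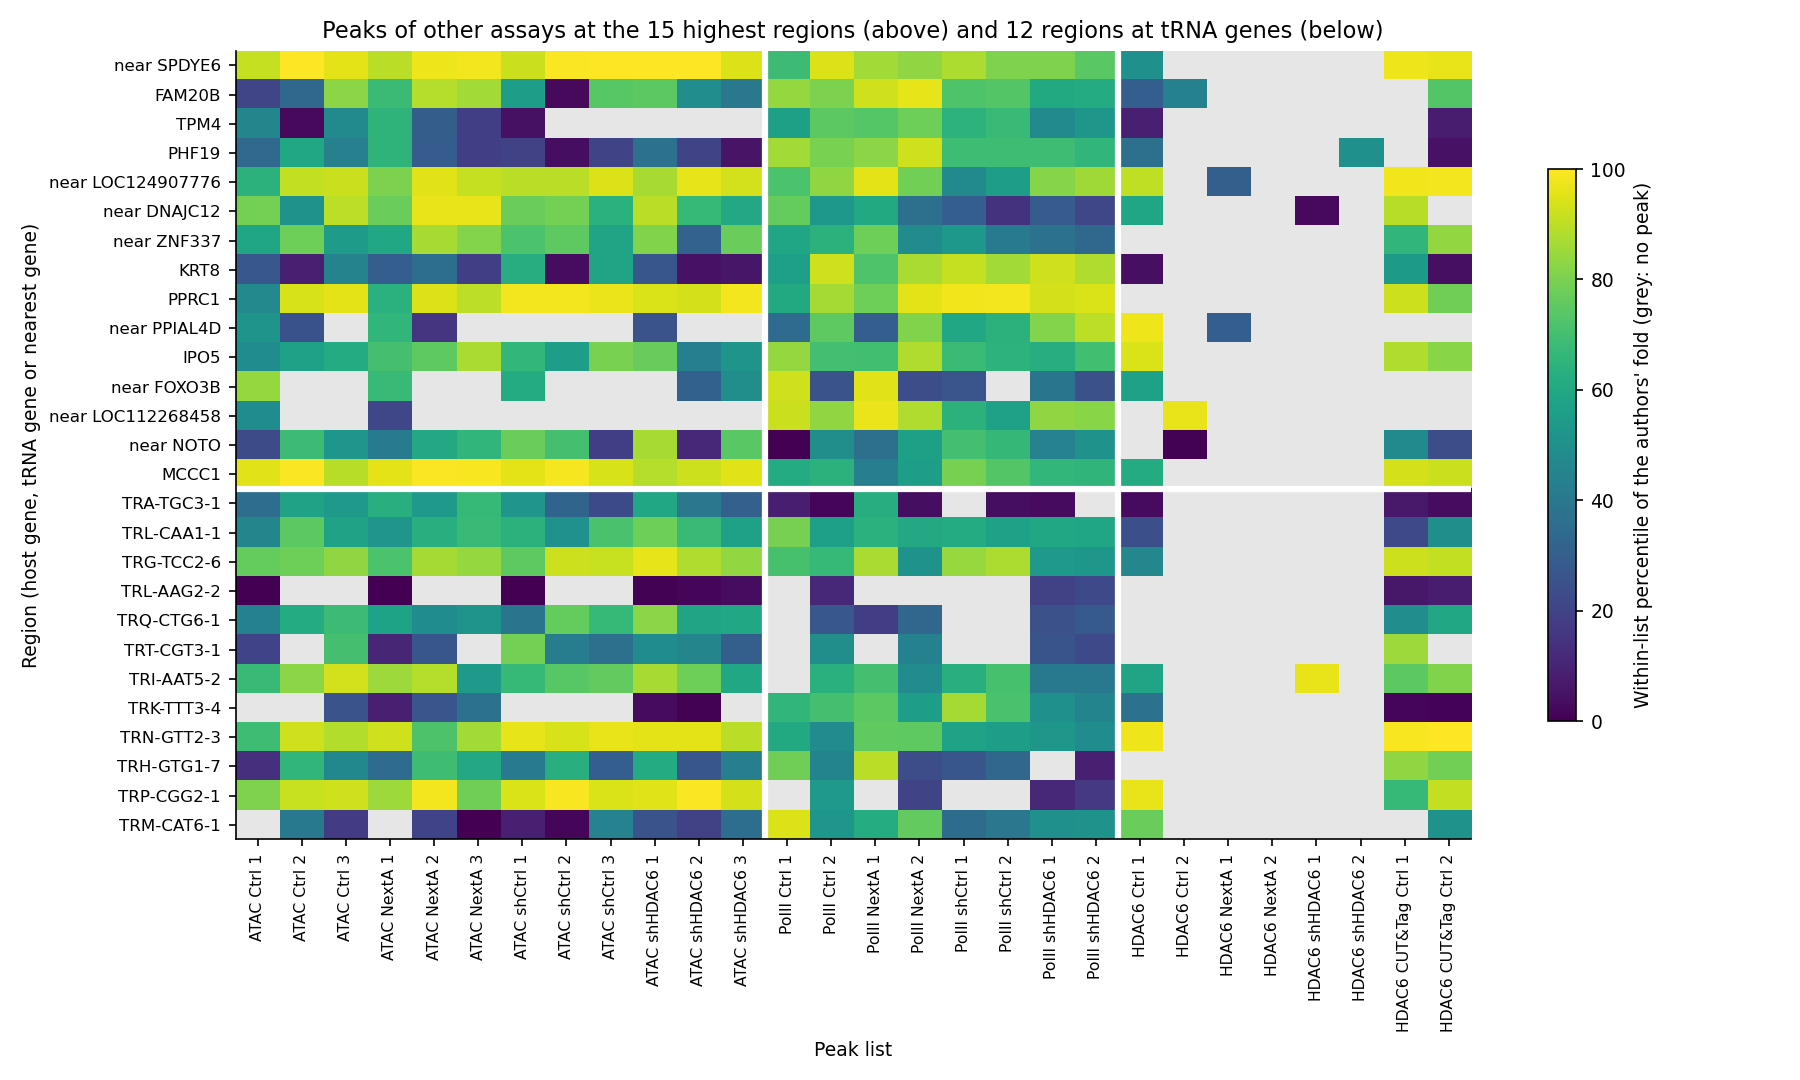
Peaks of the other assays at the 15 regions of highest mean pan-acetyl percentile (above the white line) and at the 12 highest regions within 1 kb of a tRNA gene (below), with 1 column per list. Colour is the within-list percentile of the authors' fold and grey means no peak. The TPM4 row is grey in 5 of 6 hairpin ATAC lists, and 4 tRNA rows are grey in both PolII shCtrl lists and coloured in both shHDAC6 lists.

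Regions near non-coding starts had mean ATAC shares of 80.9% in Ctrl and 77.6% in shCtrl, below those at protein-coding starts and at small RNA genes. PolII peaks were present at 75.5% and 90.0% of the 110 in Ctrl and at 79.1% in both shCtrl lists. The highest region of all by pan-acetyl percentile, chr7:102363930-102364780 near SPDYE6, belongs here. It had ATAC and PolII peaks in all 6 and all 4 parental lists and HDAC6 in 3 of 4 control lists. The LINC03009 region (chr7:76548678-76550324) had the highest fold in NextA list 1, 7.68, and 2.49 in list 2. The AGAP2-AS1 region (chr12:57726033-57726929) had ATAC peaks at percentiles 63.6, 81.2 and 94.3 in Ctrl and 87.8, 93.3 and 95.4 in NextA.

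tRNA genes, which RNA polymerase III transcribes, were near 30 of the regions (3.30%). The share was 1.97% of the kept regions, 0.115% of those in 1 NextA list only, 0.509% of those gained at gene ends and 0.157% of all 118158 merged regions. Chromosome 6 held 15 of the 30, and it holds 155 of the 443 tRNA genes of the annotation. All 6 parental ATAC lists had a peak at 23 of the 30 and all 4 parental PolII lists at 17. HDAC6 CUT&Tag peaks were present at 90.0% of the 30 in both lists, against 44.1% and 50.8% of all 909 regions, and HDAC6 ChIP peaks in Ctrl at 76.7% (CST) and 10.0% (Novus). These regions had a median width of 1516 bp, close to that of all 909.

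The 527 regions without a listed start fell almost evenly inside genes (249) and outside (278). ATAC peaks covered 72.5%, 68.1% and 69.8% of them in Ctrl and 56.2%, 58.4% and 54.1% in shCtrl, and PolII peaks 62.0% and 66.2% in Ctrl. ATAC in all 6 parental lists together with PolII in all 4 was found at 176 (33.4%), and ATAC in all 6 without any PolII peak at 18 (3.42%). The highest of them, chr2:64749818-64750812, lies 94595 bp from the nearest gene end. It had ATAC peaks at percentiles 64.4, 90.8 and 92.1 in Ctrl and 80.4, 95.7 and 91.3 in NextA, and PolII peaks at 71.7 and 83.6 in Ctrl and 95.9 and 78.9 in NextA. HDAC6 CUT&Tag peaks stood there at percentiles 97.9 and 98.1. This region was thus occupied in all 10 parental ATAC and PolII lists.

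**Figure D5:**
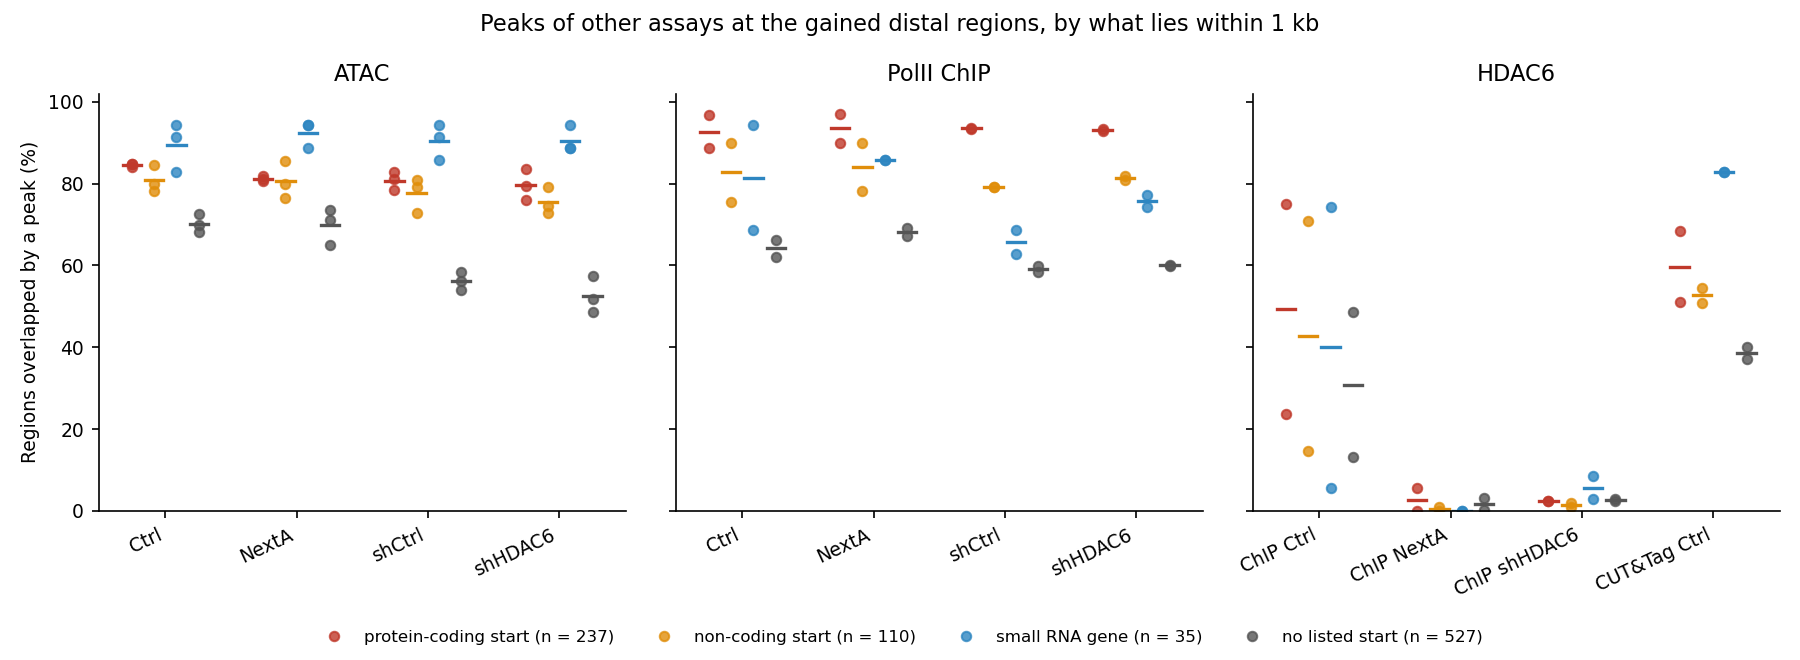
Share of regions (%) overlapped by a peak in each list (points; bars are group means), by annotation class, for ATAC, PolII and HDAC6. The regions without a listed start are lowest in every ATAC and PolII list, and the ATAC points of Ctrl and NextA overlap in each class except that of protein-coding starts, where the NextA lists lie at 80.6% to 81.9% and the Ctrl lists at 84.0% to 84.8%.

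The ATAC share with the inhibitor differed from that without it by less than the spread of the lists. ATAC peaks overlapped 78.0%, 75.6% and 71.4% of the 909 regions with NextA, a mean of 75.0% ± 3.34 (SD, n = 3), against 75.9% ± 1.83 (n = 3) in Ctrl. The groups overlapped, and the difference of -0.95 points gave p = 0.8 by exact two-sided permutation (smallest possible 0.1; adjusted over 5 contrasts 0.8). No region had an ATAC peak in all 3 NextA and no Ctrl list, where 0.0474% of all merged regions did (0.214% of those with an ATAC peak in any of the 6 lists), and none the reverse, where 0.0245% did (0.111% of those with a peak). A peak in all 6 lists was present at 527 regions and in none at 92. Among the regions near protein-coding starts alone the groups did not overlap, with 81.9%, 81.0% and 80.6% in NextA below 84.8%, 84.8% and 84.0% in Ctrl, a difference of -3.38 points (exact permutation p = 0.1, the smallest possible; adjusted 0.5). Leaving out NextA list 3 turned the difference to 0.84 points and leaving out Ctrl list 1 to 0.02.

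PolII showed no shift beyond the spread of the lists either, when these were taken as unpaired. With NextA, PolII peaks overlapped 76.2% and 78.4%, and in Ctrl 70.8% and 78.1%, so the groups overlapped, with a difference of 2.86 points (exact permutation p = 0.667, adjusted 0.8; 2 against 2 cannot go below 0.33). Without Ctrl list 1 the difference was -0.77 points. PolII peaks in both NextA and neither Ctrl list were found at 2 regions, or 0.22% of the 909, against 0.2% of all merged regions. Among regions with a PolII peak in any of the 4 lists this was 0.251% (2 of 798), against 1.09%. The reverse was found at 0, against 0.0245% and 0.134%. The 2 lie in JARID2 (chr6:15415074-15415631), which encodes a PRC2 cofactor, and in PPCDC (chr15:75046629-75047624), which encodes an enzyme of coenzyme A synthesis. Neither count nor share thus differed from Ctrl in a way the lists could resolve.

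The difference in share between the gained distal regions and each of the 3 other sets was also compared between groups. None of the 15 changes passed an adjusted p of 0.05 (exact permutation over lists; adjusted values 0.625 to 1), and 2 against 2 or 3 against 3 lists could not have done so.

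HDAC6 ChIP peaks were common at the regions in control cells with 1 antibody and nearly absent with NextA. They overlapped 59.2% of the regions in Ctrl list 1 (CST) and 15.7% in Ctrl list 2 (Novus), against 3.41% and 0.11% with NextA and 2.86% and 2.31% with shHDAC6. The groups Ctrl and NextA did not overlap, with a difference of -35.7 points (exact permutation p = 0.33, the smallest possible; adjusted 0.667). A peak in both Ctrl and neither NextA list was found at 100 regions, against 2.5% of all merged regions. Of the 579 regions with a peak in any of the 4 lists this was 17.3%, against 16.6% of all merged regions with one, so the share lay near the background. None gained HDAC6, as in 0% of all regions. Without Ctrl list 2 the lost count was 508. NextA list 2 held 235 peaks in all, and with equal list lengths the lost count was 0 and the difference -0.17 points. At a −log10 q of at least 5 the lost count was 0 and the difference -0.22 points, and with 1 list left out the difference ranged from -57.4 to -14.0 points.

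HDAC6 was in all 4 control lists, ChIP and CUT&Tag, at 46 regions, a count given without its share over all merged regions. The 6 highest by pan-acetyl percentile included starts inside TDRD3, DCUN1D4, PRIM2 and WIZ, and starts of the non-coding RNA genes DLEU2 and LOC105372952. TDRD3 encodes a Tudor domain protein that reads methylarginine and WIZ a zinc finger partner of a histone H3 methyltransferase. All 6 had PolII in 4 of 4 parental lists. Single control HDAC6 lists had a peak at 6.60% to 11.1% of all merged regions, and whether 46 is many was not tested.

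Knockdown of HDAC6 gave no difference in share that passed the test. ATAC peaks overlapped 68.2%, 60.2% and 63.2% with shHDAC6, a mean of 63.8% ± 4.06 (SD, n = 3), against 66.5% ± 2.37 (n = 3) with shCtrl. The groups overlapped, and the difference was -2.68 points (exact permutation p = 0.4, adjusted 0.667). With equal list lengths it was 0.95 points. An ATAC peak in all 3 shCtrl and no shHDAC6 list was found at 5 regions, 0.55% against 0.114% of all merged regions and 0.695% against 0.71% among regions with a peak in any of these lists. The reverse was found at 1, or 0.11%, against 0.0508% of all merged regions, and 0.139% against 0.316% among those with a peak. The 5 lie near TRIB1, CFAP299, BZW1 and PPM1B and inside HIVEP3, and the 1 near ROPN1B. None of the 6 has a listed start.

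PolII peaks overlapped 71.8% of the regions in both shHDAC6 lists, against 71.2% and 70.4% with shCtrl, a difference of 1.05 points (exact permutation p = 0.33, the smallest possible; adjusted 0.667). The lists did not overlap between groups. A PolII peak in both shHDAC6 and no shCtrl list was found at 18 regions, 1.98% against 0.272% of all merged regions. Among the 684 with a PolII peak in any of these lists the share was 2.63%, against 1.99%. The reverse was found at 8, or 1.17% of the 684, against 2.8%, and 0.383% of all merged regions. Both shares within the occupied regions were thus of the order of the background. The 8 include, picked after their values were seen, regions in TLE2, a corepressor gene, TEAD1, a transcription factor gene of the Hippo pathway, and STK10.

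Among the 18 were 4 regions at tRNA genes, a feature singled out after the values had been seen. They adjoin TRL-AAG2-2, TRQ-CTG6-1, TRT-CGT3-1 and TRP-CGG2-1 on chromosome 6, genes for leucine, glutamine, threonine and proline tRNAs. Their PolII peaks in shHDAC6 lists 1 and 2 ranked at percentiles 19.8 and 22.04, 24.7 and 28.4, 26.1 and 22.2, and 11.4 and 16.7 in that order, all below the median of their lists. PolII Ctrl list 2 also had a peak at each of the 4, so the peak was called in untreated parental cells too. Over the 30 regions at tRNA genes PolII overlapped 56.7% and 63.3% with shCtrl and 76.7% and 73.3% with shHDAC6. The groups did not overlap, with a difference of 15 points, given as a description with no test because these regions were singled out with that change in view. In parental cells the shares were 60.0% and 96.7% in Ctrl and 80.0% and 83.3% in NextA.

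The gained distal regions lay in 499 protein-coding genes, 2.50% of all, and 513 regions (56.4%) were inside one. The genes that hold a region were long, with a median of 79044 bp against 24170.5 bp for all. PSD2, which encodes an exchange factor for ARF GTPases, held 3, and it forms with CXXC5 the largest group of neighbours within 50 kb, 4 regions over chr5:139696327-139795768. Pairs of regions were held by 22 other genes, among them FOXP1, JARID2, CASP8 and SMAD3.

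Genes of 13 lists, some for this cell type and some for others, were looked up among the genes that hold a region. Basal breast genes had 3 of 20 holding a region (15%): ITGB4, EGFR and CDH3, an integrin subunit, a growth factor receptor and a cadherin. Of TGF-beta and SMAD genes 2 of 24 did, SMAD3 and SKI, a transducer of the pathway and its repressor. TEAD1 was the 1 of 21 AP-1 and YAP/TEAD genes, KRT8 the 1 of 24 epithelial and luminal genes, NFKB2 the 1 of 24 NF-kB and cytokine genes and CDK6 the 1 of 28 growth signalling genes. Mesenchymal (22), actin and adhesion (27), tubulin and cilium (21), deacetylase, acetyltransferase and reader (28), leukocyte (20), neuron (20) and ribosomal protein (20) lists had 0. All genes together had 2.50%, and the lists were not tested.

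KRT8, the keratin of simple epithelia, held the strongest of the list regions (chr12:52903369-52905472), with pan-acetyl folds of 4.93 and 2.89. It had PolII at percentiles 56.6 and 92.6 in Ctrl and 72.5 and 87.2 in NextA, and ATAC peaks in 6 of 6 parental lists, the weakest at 8.85. SMAD3 held 2 regions, 1 of them at an internal start (chr15:67125710-67127469), with ATAC in 6 of 6 parental lists at both and PolII in 4 of 4 at the internal start and 2 of 4 at the other. The EGFR region (chr7:55064922-55067285) had pan-acetyl folds of 3.09 and 2.21, ATAC in 6 of 6 and PolII in 2 of 4 parental lists. The NFKB2 region (chr10:102399297-102399798) had ATAC in 6 of 6 and PolII in 4 of 4. The regions in CDK6, SKI and CDH3 had no parental PolII peak. Parental ATAC peaks were present there in 4, 1 and 5 of 6 lists. The ITGB4 region had ATAC in 1 of 6 and PolII in 2 of 4, and the TEAD1 region ATAC in 4 of 6 and PolII in 1 of 4.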

How the data were processed

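Peak lists of 32 of 41 samples were used. The other 9, inputs and a negative control, were not analysed here. Each deposited list gives, per peak, a score, a linear ratio (fold over the caller's background), and −log10 of p and of q, all made by the authors. Per the submitters' processing notes, MACS2 2.2.7.1 and Bowtie2 2.4.4 were among the tools and hg38 was the build, with no role or setting given; Trim Galore 0.6.7 and ChIPseeker 1.28.2 are listed too. The deposited score was not used. The fold ranked peaks within a list as a percentile, and −log10 values served as filters.

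Repeated intervals were joined, and touching or overlapping pan-acetyl peaks merged. A peak was present with an overlap of at least 1 bp. Shares were computed per list in Python 3.11.15 (numpy 2.4.6, pandas 2.3.3), compared by exact permutation over lists and adjusted by Benjamini-Hochberg. The code was tested on simulated data. Gene ends, starts and sequences came from RefSeq tables of GRCh38.p14. Promoter and microRNA tables were matched by position.

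Members, lists and comparisons were chosen with earlier results of these data known. Named regions were the 15 with the highest mean percentile of the pan-acetyl fold in the NextA lists, the 6 highest of each class of occupancy or change, those nearest each threshold, the 10 genes holding most regions, and up to 4 genes per list. The tRNA genes, regions that changed PolII with shHDAC6, the microRNA regions, the annotation classes and the printed sequences were picked after the values had been seen.

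In ATAC, deviations of same-numbered Ctrl and NextA lists correlated (0.56, 0.23 and 0.23), so by that measure the numbers pair the lists, although lists 2 and 3 correlated as well with each other's number (0.22 and 0.24). Number 1 marks lists with complete peak numbering there. In PolII, Ctrl and NextA lists of the same number correlated at 0.55 and those of different number at -0.55. With 2 lists per group these are mirror images of 1 value. The same-number value was 0.19 for HDAC6 with NextA and 0.013 for PolII with the hairpins.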

Additional observations from a re-analysis of the deposited data

How the results depend on the processing

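Of 252 recomputed values, 187 were labelled the same, 60 moved and 5 reversed. Differences were labelled by sign and side of the adjusted threshold, which no comparison of lists could have passed. Counts were labelled moved when they changed by more than a factor of 1.5. Neither label covers the size of a difference. The HDAC6 difference with NextA, -35.7 points, was labelled the same at -0.22 points with a −log10 q of at least 5. The number of regions was 14 with a pan-acetyl −log10 q of at least 2, 9 at equal list length and 963 to 51810 with 1 pan-acetyl list left out (51810 without NextA list 1, 15870 without NextA list 2), by construction, since fewer lists must then hold a peak. The ATAC difference with NextA turned to 1.10 points at a −log10 q of at least 5, and ranged from -2.46 to 0.84 points with 1 list left out. The ATAC difference with shHDAC6 turned to 0.95 points at equal list length. The PolII difference with NextA ranged from -0.77 to 6.49 points with 1 list left out. The replicate block, which pairs lists of the same number, left every difference as it was. Its exact p was 1 and 0.75 for ATAC with NextA and shHDAC6 (-0.95 and -2.68 points). It was 0.5 for both PolII contrasts (2.86 and 1.05 points) and for HDAC6 (-35.7 points). The value 0.5 is the smallest that 2 pairs can give, and the ATAC pairs could not pass the threshold either. The block therefore could not have changed a call, and its p-values decide nothing about a paired difference.

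Counts of regions gained or lost moved most. With an overlap of at least 200 bp, ATAC losses with NextA were 1 and ATAC gains with shHDAC6 were 3. In 500 bp at the centre they were 2 and 0. With 1 kb added on each side, ATAC losses with NextA were 1 and PolII gains with NextA 1. At a −log10 q of at least 5, ATAC losses with NextA were 1, ATAC gains with shHDAC6 2, PolII losses with NextA 3, PolII gains and losses with shHDAC6 31 and 15, and HDAC6 losses 0. At equal list length, ATAC gains and losses with NextA were 1 and 1, ATAC gains with shHDAC6 3, PolII losses with NextA 1 and HDAC6 losses 0. PolII gains with NextA were 1 among regions over 5 kb from gene ends. Among regions without a listed start, chosen after the data had been seen, PolII gains with shHDAC6 were 11 and HDAC6 losses 45.

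With 1 list left out, fewer lists must agree, so counts can only stay or grow. ATAC gains then ranged from 0 to 6 and losses from 1 to 11 with NextA, and from 2 to 6 and 7 to 13 with shHDAC6. PolII gains ranged from 12 to 41 and losses from 4 to 14 with NextA, and from 22 to 27 and 13 to 14 with shHDAC6. HDAC6 gains ranged from 0 to 1 and losses from 100 to 508. The causes were not tested beyond these settings. Read depth is not given, and 2 lists per group limit what PolII, HDAC6 and pan-acetyl can show.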

Other observations

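No other list had a peak at 30 of the 909 regions (3.30%), and 29 of these have no listed start. The highest of the 30 by pan-acetyl percentile was chr1:144882419-144883744 near SRGAP2B, with folds of 4.25 and 2.41. Next came chr17:52409414-52409727 near CA10, with 3.35 and 2.64. The others named by rank lie in PNKD, PDZD7 and CCDC85C and near GOLGA6D.

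The regions were not spread over chromosomes as the single-list regions were. Chromosome 19 held 5.72% of the 909, 2.75% of the distal regions in 1 NextA list only and 7.26% of protein-coding genes. Chromosome 17 held 6.60%, 3.77% and 5.85%, and chromosome X 1.87%, 4.25% and 4.25%. These shares are a description, and the copy number of this line was not used here.

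Occupancy in untreated cells went with width. ATAC peaks in the Ctrl lists covered 61.5% to 63.0% of 257 regions under 1000 bp wide and 84.3% to 88.8% of 223 regions of 2000 bp or more. PolII peaks in Ctrl covered 48.2% to 63.8% and 87.9% to 91.9% of the same regions. No listed start was near 73.5% of the narrow and 38.6% of the wide ones.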
